A study of Homo sapiens with 8 samples.

Results

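The genes PBX2, PBX3, PBX4, MEIS1, MEIS2, MEIS3, PKNOX1 and PKNOX2 encode homeodomain cofactors, and H3K27 acetylation around them was followed in human pancreatic progenitors kept in DMSO or in I-BET151. The 8 genes were taken from a list by family, 8 of the 20007 protein-coding genes of GENCODE release 44, and every H3K27ac peak in each gene body and the 50 kb on either side was used. Peaks of the 4 libraries were merged into regions wherever they shared at least 1 bp, which gave 15752 regions, 41 of them in the windows of the 8 genes.

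The cells were derived from the established human embryonic stem cell line MEL1, in the methods MEL1 INS GFP/W, a line with a GFP reporter at the INS gene that both groups therefore carried, and were cultured as pancreatic progenitors in EF6, a DMEM medium with B27, EGF, bFGF and the compound 616452, an inhibitor of the TGFβ receptor. Both groups had this medium and differed in DMSO, the solvent, against 1 μM I-BET151, a small molecule that blocks the acetyl-lysine pocket of BET proteins, for 7 days. Each group had 2 H3K27ac ChIP-seq libraries, and 4 input libraries made up the rest of the 8 samples, entering here only through the peak caller's background. All cells come from 1 line, and the labels do not say that replicates were separate cultures, so each p-value measures only the spread between these libraries.

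PBX, MEIS and PKNOX proteins belong to the TALE class of homeodomain proteins, named for a loop of extra amino acids between the first and second helices of the homeodomain. PBX proteins bind DNA together with HOX and other homeodomain proteins, PDX1 of the pancreas among them, while MEIS and PKNOX proteins bind PBX through their N-terminal part, which helps to keep PBX in the nucleus and adds a DNA contact. H3K27ac is a histone mark found at active promoters and enhancers.

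Sequences that carry the largest differences are shown first. They are the 200 bases around the summit of the 5 regions, among those called in all 4 libraries, lying over 3 kb from any annotated start of the member and outside exons, with the largest height difference. Coordinates are hg38, the strand is the reference strand, and capitals mark each CpG.
MEIS2 region 1, chr15:36887433-36887632, + strand: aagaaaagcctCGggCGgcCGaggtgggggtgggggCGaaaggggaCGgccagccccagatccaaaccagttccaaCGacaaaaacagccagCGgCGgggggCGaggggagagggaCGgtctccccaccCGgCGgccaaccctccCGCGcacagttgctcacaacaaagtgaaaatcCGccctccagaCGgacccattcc
MEIS2 region 2, chr15:36888516-36888715, + strand: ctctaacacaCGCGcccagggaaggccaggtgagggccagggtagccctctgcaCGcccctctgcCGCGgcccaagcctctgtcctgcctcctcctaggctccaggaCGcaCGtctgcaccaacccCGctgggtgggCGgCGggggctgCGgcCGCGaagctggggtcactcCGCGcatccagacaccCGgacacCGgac
MEIS2 region 9, chr15:37107006-37107205, + strand: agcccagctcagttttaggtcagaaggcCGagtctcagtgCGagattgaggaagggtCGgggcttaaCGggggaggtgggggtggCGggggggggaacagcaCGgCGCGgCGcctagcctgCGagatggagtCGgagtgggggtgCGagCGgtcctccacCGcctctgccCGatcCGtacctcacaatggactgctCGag
MEIS1 region 9, chr2:66581522-66581721, + strand: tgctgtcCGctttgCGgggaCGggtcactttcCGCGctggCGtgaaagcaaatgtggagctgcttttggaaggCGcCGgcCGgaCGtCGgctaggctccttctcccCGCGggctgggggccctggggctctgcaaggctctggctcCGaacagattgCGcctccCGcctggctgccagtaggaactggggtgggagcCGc
PBX3 region 4, chr9:125889771-125889970, + strand: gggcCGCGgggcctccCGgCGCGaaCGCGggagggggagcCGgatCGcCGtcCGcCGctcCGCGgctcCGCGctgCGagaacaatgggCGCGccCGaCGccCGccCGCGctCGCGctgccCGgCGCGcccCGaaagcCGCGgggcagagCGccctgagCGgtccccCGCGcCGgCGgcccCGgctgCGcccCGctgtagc
MEIS2 regions 1 and 2 lay past the 3′ end of the gene and MEIS2 region 9 lay upstream of it, MEIS1 region 9 lay past the 3′ end of MEIS1, and PBX3 region 4 lay in an intron of PBX3. Their windows held between 16 and 41 CpG, against a median of 17 over the 30 regions whose nearest protein-coding start is a member's and a median of 18 over all 15752 regions. PBX3 region 4 was the richest of the 30, with a GC content of 84.0%.

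The letters read by TALE proteins were searched on both strands of the same 200 bases of every region. TGACAG, the core letters of a MEIS or PKNOX site, stood in 6.55% of all 15752 regions and in 2 of the members' 30, MEIS1 region 5 and MEIS2 region 5. TGATTGAC, letters of a joint PBX with MEIS or PKNOX site, stood in 0.0635% of all regions, 10 in number, and 1 of these 10 was MEIS2 region 7, 530 bp upstream of the annotated start of MEIS2. That window is printed because it holds the joint letters, which are in capitals and read on the opposite strand.
MEIS2 region 7, chr15:37101729-37101928, + strand: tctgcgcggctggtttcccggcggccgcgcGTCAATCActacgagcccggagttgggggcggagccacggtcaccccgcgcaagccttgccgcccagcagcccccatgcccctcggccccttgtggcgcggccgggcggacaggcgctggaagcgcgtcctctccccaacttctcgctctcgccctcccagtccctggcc
TGATTNAT, letters of a PBX with HOX site, stood in 0.241% of all regions and in 0 of the 30, and TGANTCA, the AP-1 letters, in 2.27% and in 0 of the 30. In the RefSeq promoter table (GRCh38.p14, 250 bases before to 50 after a start), 7 of the 8 members had 9 entries. TGACAG was in the PBX3 promoter, against 15.8% of all 35116 promoters, and TGATTNAT in a MEIS2 promoter, against 2.82%. A match of letters is a description of the sequence and not evidence of binding.

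The libraries held between 12312 and 14248 peaks, and the deposited values gave back ChIP depths of 7.76 to 9.84 M reads and input depths of 2.67 to 3.04 M reads. All 9 pancreatic progenitor genes checked, PDX1, NKX6-1 and SOX9 among them, had a peak within 3 kb of a start in all 4 libraries. None of the 4 endocrine, 2 pluripotent and 2 hepatic genes had one in any library, while of the 2 mesenchymal genes PDGFRB had a peak in all 4 and COL1A1 in 0. The share of other cells was not measured, and a change in cell make-up and a change of acetylation within cells cannot be told apart in these bulk samples.

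Length covered by peaks asks how much of each gene's window was called acetylated in each library. Of the 8 members, 2 had more covered length in both I-BET151 libraries than in both DMSO libraries (PBX2 and PBX3), 1 had less (PBX4), 4 overlapped (MEIS1, MEIS2, PKNOX1, PKNOX2), and MEIS3 had no peak. Among the 15184 protein-coding genes with a peak in their window, 12.5% were higher and 44.4% lower in this sense. With 2 libraries against 2, the smallest p of the two-sided exact permutation test is 0.333, and the smallest adjusted p (Benjamini-Hochberg over 15184 genes) among the members was 0.586.

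MEIS2, which codes for a cofactor present in many embryonic tissues, had the longest coverage of the 8, at the 97.1 percentile of genes with a peak. It measured 6.23 and 5.63 kb in DMSO against 7.00 and 6.01 kb in I-BET151. DMSO replicate 1 was above I-BET151 replicate 2, so the groups overlapped. Its window spans a gene of 212 kb with no other protein-coding gene.

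MEIS1, the founding member of the MEIS genes and a known HOX partner in blood cells, came next at the 93.5 percentile. It measured 5.63 and 3.95 kb in DMSO against 4.44 and 4.66 kb in I-BET151. The DMSO libraries lay on either side of both I-BET151 libraries, with means of 4.79 ± 1.19 kb and 4.55 ± 0.15 kb (SD, n = 2 each). The high DMSO value included MEIS1 region 1, upstream of the gene, which covered 1148 bp in DMSO replicate 1, 260 bp in DMSO replicate 2, 0 bp in I-BET151 replicate 1 and 254 bp in I-BET151 replicate 2.

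PBX3, a PBX protein studied in neurons and in leukaemia, measured 2.88 and 2.55 kb in DMSO against 3.13 and 2.97 kb in I-BET151, a difference of 0.329 kb between the means. PBX2, a broadly expressed PBX, measured 3.36 and 3.10 kb in DMSO against 4.43 and 4.70 kb in I-BET151, a difference of 1.33 kb. Both I-BET151 libraries were above both DMSO libraries for each of these genes.

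The window of PBX2 holds 10 other protein-coding genes, and its added length was not at PBX2 itself. A gained region (called in the 2 I-BET151 libraries, absent from the DMSO lists), PBX2 region 2 (chr6:32166753-32167770), covered 679 and 1003 bp. Its summit lay in a coding exon of EGFL8, 20 bp from an EGFL8 start and 19992 bp from PBX2's nearest start. Within the PBX2 gene body and 3 kb either side, the covered length instead differed by -0.0495 kb, I-BET151 minus DMSO.

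PBX4, a PBX family member known mainly from testis, measured 3.86 and 3.68 kb in DMSO against 3.02 and 2.72 kb in I-BET151, a difference of -0.899 kb between the means with no overlap of the groups. No peak in its window was nearest to a PBX4 start, so these values describe its neighbours among 8 other protein-coding genes. PBX4 region 3 (chr19:19643311-19644047) covered 704 and 709 bp in DMSO and was not called in I-BET151. Its summit lay over a non-coding part of an exon of GMIP, 12 bp from a GMIP start and 24880 bp upstream of PBX4. PBX4 region 2, in an intron of LPAR2 and 102 bp from an LPAR2 start, covered 1393 and 1373 bp in DMSO against 1304 and 1262 bp in I-BET151.

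PKNOX1 and PKNOX2, whose proteins share the PBX-binding part of MEIS proteins, differed least in covered length among the 7 genes with peaks. PKNOX1, widely expressed, measured 1.65 and 1.75 kb in DMSO against 1.71 and 1.73 kb in I-BET151. PKNOX2, more tissue-restricted, measured 1.93 and 1.78 kb in DMSO against 2.15 and 1.83 kb in I-BET151. For both genes the groups overlapped, and MEIS3, the remaining MEIS gene, was at 0 kb in all 4 libraries in a window with 2 other protein-coding genes.

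**Figure D1:**
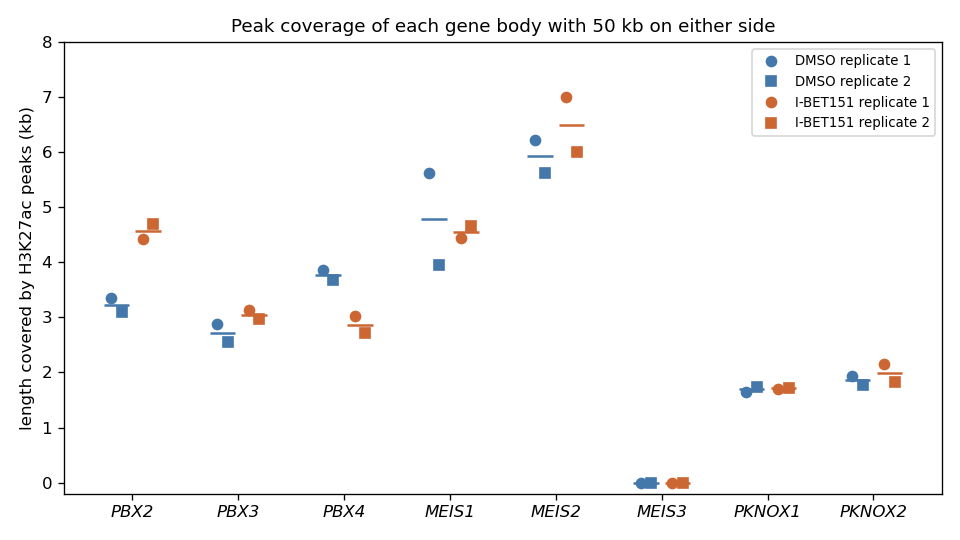
Length in kb covered by H3K27ac peaks in each gene body with 50 kb on either side (vertical axis) for the 8 genes (horizontal axis). Points are the 4 libraries and short lines the group means; PBX2 and PBX3 separate upwards in I-BET151, PBX4 downwards, MEIS3 is at 0, and the other 4 overlap.

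Summed over the 8 windows, the covered length was 25.5 and 22.4 kb in DMSO against 25.9 and 24.6 kb in I-BET151, or 24.0 ± 2.19 and 25.2 ± 0.90 kb (SD, n = 2 each). DMSO replicate 1 lay between the I-BET151 libraries, so the groups overlapped. The difference of 1.26 kb between the means became 2.81 kb without DMSO replicate 1, -0.29 kb without DMSO replicate 2, 0.623 kb without I-BET151 replicate 1 and 1.898 kb without I-BET151 replicate 2. It was 0.146 kb with 100 kb on either side and 2.86 kb with equal numbers of top-ranked peaks. In the members' 41 regions, 1 was gained and 1 lost, both near other genes, against 2.81% gained and 8.60% lost among all 15752 regions. None of the 30 regions nearest to a member's own start was gained or lost in this sense, 25 of them being called in all 4 libraries, 2 in 3 libraries and 3 in 1 library.

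Summit height asks how strong the mark was where it was present in every library. It is the number of ChIP fragments over the summit, recovered from the deposited fold and p and scaled to the input, divided by a genome-wide input level. A height of 100 means 100 times that level. The level was taken as the lowest local input recovered among a library's peaks. Of the 25 own regions called in all 4 libraries, 24 had a height in each, resting on 34 to 422 reads.

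Heights were higher in both I-BET151 libraries than in both DMSO libraries at 23 of the 24 own regions and lower at 0, and PBX2 region 6 overlapped. Over all 9982 regions with heights, 39.9% were higher and 27.9% lower in this sense. The median log2 difference was 0.34 over the 24 and 0.04 over all regions. A limma fit across the 9982 regions called 17 of the 24 higher and 0 lower at an adjusted p under 0.05. Among all regions it called 22.4% higher and 15.0% lower. This fit used a spread pooled over all regions by mean height, not each region's own spread. A limma fit without that trend also weighs each region's own spread. It called 16 of the 24 higher and 0 lower, against 15.4% and 12.3%. MEIS2 region 3 and MEIS1 region 9 had the smallest adjusted p of the 24 in the limma fit with the trend, 1.001e-11 and 1.518e-09. Without the trend the limma adjusted p was 0.00128 and 0.00107.

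The calls depended on the scale used for height. In RPM, the summit reads were scaled by a ChIP depth estimated from the recovered input level and each library's shortest peak. RPM therefore differs from height only by a constant per library and is not a separate measurement. On RPM, limma called 11 of the 24 higher and 0 lower, against 10.1% of all 9982 regions higher and 14.5% lower. On the authors' fold over the local background it called 0 of the 24 (9 at an unadjusted p under 0.05), with 5 regions higher and 7 lower overall. Without DMSO replicate 1 the height gave 9 higher calls of 24, against 12.4% higher and 5.10% lower among all regions, and without DMSO replicate 2 also 9, against 9.57% and 4.12%. With 1 DMSO library left, the spread came from the I-BET151 libraries alone and the lone library was assumed to vary like them. MEIS1 regions 3 and 9, MEIS2 regions 1, 2, 3, 5 and 9 and PBX3 region 4 were called in all 9 fits on height or RPM, which is 8 of the 24, against 5.38% of all 9982 regions called higher in all 9 and 3.47% called lower. The local input at summits in the members' windows was a median 35.9 and 32.1 times the genome-wide level in DMSO and 31.5 and 29.4 times in I-BET151, and its part in these differences was not tested.

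**Figure D2:**
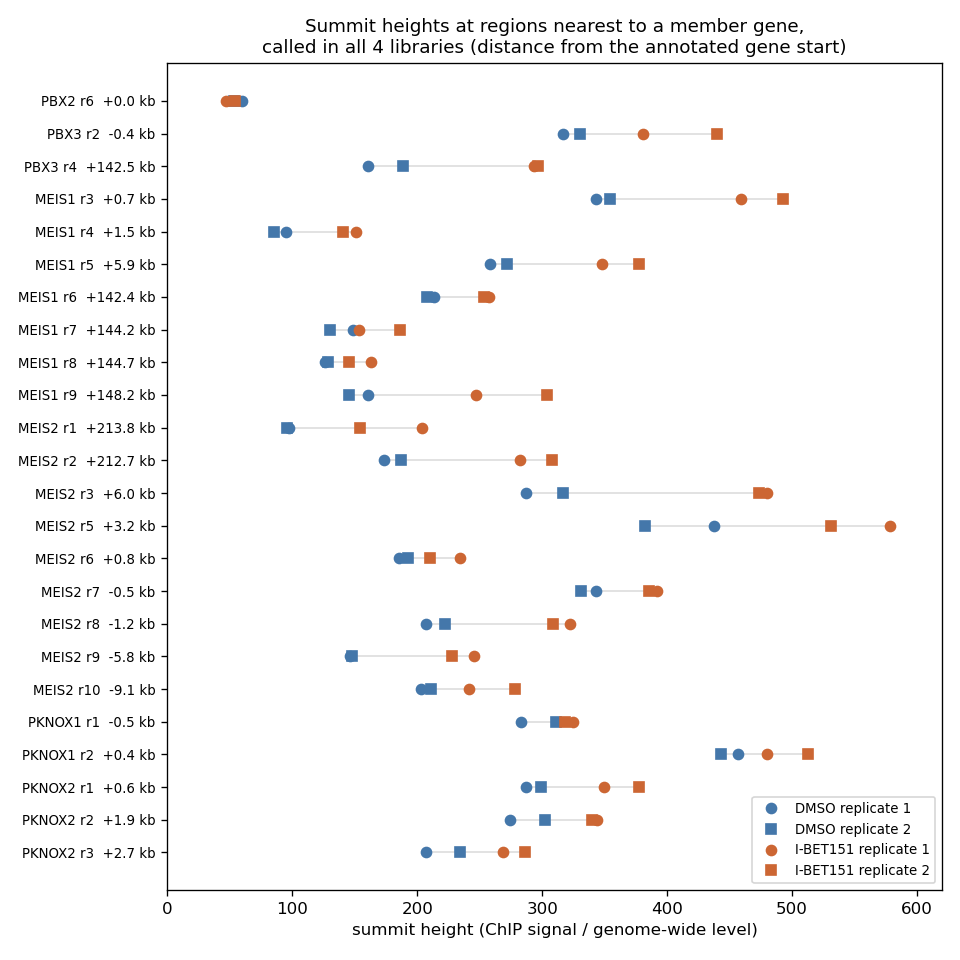
Summit height in each library (horizontal axis, ChIP signal over the genome-wide level) at the 24 own regions called in all 4 libraries (rows; r6 stands for region 6, with the distance of the summit from the annotated gene start in kb). Circles and squares are replicates 1 and 2; the I-BET151 points lie to the right of the DMSO points in every row but that of PBX2.

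MEIS2 had 9 of the 24 regions, all higher in both I-BET151 libraries, and limma called 7 of them. The highest of the 9 in DMSO, MEIS2 region 5 (chr15:37097726-37099503, summit in a coding exon and 80 bp from an annotated MEIS2 start), measured 438 and 382 in DMSO and 578 and 532 in I-BET151. It was 1.36-fold higher (limma adjusted p = 5.742e-07). MEIS2 region 3 (chr15:37094960-37095621), 60 bp from another MEIS2 start, measured 287 and 317 in DMSO and 480 and 474 in I-BET151, 1.58-fold higher (limma adjusted p = 1.001e-11).

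Past the 3′ end of MEIS2, region 1 of the gene measured 97.3 and 95.5 in DMSO and 204 and 154 in I-BET151, the largest ratio among the 24 at 1.84-fold (limma adjusted p = 5.079e-06). Region 2, beside it, measured 173 and 187 in DMSO and 282 and 308 in I-BET151, 1.64-fold higher (limma adjusted p = 4.315e-08). Both were also wider in both I-BET151 libraries, region 1 with 343 and 262 bp in DMSO against 346 and 395 bp, and region 2 with 530 and 417 bp against 573 and 539 bp. The nearest start of any gene was that of the non-coding gene ENSG00000259280, 481 bp from region 1 and 1564 bp from region 2. The nearest MEIS2 start was 7745 and 6662 bp away.

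Upstream of MEIS2, region 9 measured 146 and 148 in DMSO and 245 and 228 in I-BET151, 1.61-fold higher (limma adjusted p = 4.819e-06). Region 8, 1222 bp upstream of the nearest MEIS2 start, measured 207 and 222 in DMSO and 322 and 309 in I-BET151, 1.47-fold higher (limma adjusted p = 5.839e-06). In each the groups were apart by more than the gap between replicates. A non-coding start lay nearer than any MEIS2 start, 2481 bp from region 9 (ENSG00000274444) and 323 bp from region 8 (ENSG00000288808).

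MEIS2 regions 6 and 7, the nearest to the annotated gene start, were not called. MEIS2 region 7, whose window carries the joint PBX and MEIS letters, measured 343 and 331 in DMSO and 392 and 386 in I-BET151, a 1.15-fold ratio that missed the threshold (limma adjusted p = 0.0627). MEIS2 region 6, 25 bp from a start, had a ratio of 1.18 (limma adjusted p = 0.139). MEIS2 region 10, 9115 bp upstream, measured 203 and 211 in DMSO against 241 and 278 in I-BET151 (1.25-fold, limma adjusted p = 0.021), a call not made in RPM. A non-coding start lay nearer than any MEIS2 start to region 7 (ENSG00000288808, 369 bp) and to region 10 (ENSG00000274444, 827 bp).

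MEIS1 had 7 regions with heights, again all higher in both I-BET151 libraries, and 5 were called by limma. The largest difference was at MEIS1 region 9 (chr2:66581365-66582281), past the 3′ end of MEIS1 and nearest to the non-coding gene LINC01798. It measured 161 and 146 in DMSO and 247 and 304 in I-BET151, 1.79-fold higher (limma adjusted p = 1.518e-09), and its width was 686 and 452 bp in DMSO against 862 and 917 bp. Both measures separated the groups.

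At the start of MEIS1, region 3 (chr2:66433892-66434557), in an intron 718 bp from the start, measured 343 and 354 in DMSO and 459 and 492 in I-BET151, 1.36-fold higher (limma adjusted p = 3.128e-06). MEIS1 region 4, 157 bp from a start, measured 94.8 and 85.5 in DMSO and 151 and 140 in I-BET151, 1.62-fold higher (limma adjusted p = 0.00162), and was wider, at 314 and 257 bp against 320 and 341 bp. MEIS1 region 5, which holds TGACAG, measured 258 and 272 in DMSO and 348 and 378 in I-BET151, 1.37-fold higher (limma adjusted p = 6e-05). The group means in region 5 were 265 ± 9.96 and 363 ± 21.0 (SD, n = 2 each). MEIS1 region 2 (chr2:66433283-66433563), 61 bp upstream of the start, covered 281 bp in DMSO replicate 1. It was not called in DMSO replicate 2 or in either I-BET151 library.

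Regions 6, 7 and 8 of MEIS1, next to region 9, had ratios of 1.21, 1.22 and 1.21. Of these limma called region 6 (adjusted p = 0.0472), which was not called in RPM, and the adjusted p was 0.137 for region 7 and 0.181 for region 8.

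PBX3 had 2 regions with heights, and limma called both. PBX3 region 2 (chr9:125746698-125748454), which spans an annotated start, measured 317 and 330 in DMSO and 381 and 440 in I-BET151, 1.27-fold higher (limma adjusted p = 0.00121), although not called in RPM. PBX3 region 4 (chr9:125889625-125890152), in the intron and 24600 bp from the nearest PBX3 start, measured 161 and 189 in DMSO and 293 and 297 in I-BET151, 1.69-fold higher (limma adjusted p = 6.275e-09). Region 4 was also wider, at 386 and 373 bp against 528 and 446 bp, and region 2 slightly so, at 1721 and 1695 bp against 1745 and 1734 bp. PBX3 region 3, 73 bp from a start, covered 276 bp in DMSO replicate 1 and 350 and 277 bp in I-BET151. It was not called in DMSO replicate 2.

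PBX2's own regions had the lowest heights among the members' regions called in all 4 libraries. PBX2 region 6 (chr6:32190002-32190343), 42 bp inside the gene, measured 59.9 and 53.3 in DMSO and 46.6 and 54.0 in I-BET151, overlapping groups with a ratio of 0.888 (limma adjusted p = 0.735), while it was narrower in both I-BET151 libraries, at 291 and 319 bp in DMSO against 254 and 286 bp. PBX2 region 5 beside it measured 57.4 and 48.9 in DMSO and 51.3 in I-BET151 replicate 2, and no height could be recovered in I-BET151 replicate 1. The wider PBX2 regions lay at neighbours. Region 1, nearest to PPT2-EGFL8, covered 1463 and 1197 bp in DMSO against 1525 and 1482 bp in I-BET151. Region 7 covered 717 and 764 bp in DMSO against 830 and 809 bp in I-BET151. Its summit lay over a coding exon of NOTCH4, and the nearest start was that of GPSM3, 569 bp away.

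The PKNOX genes had strong acetylation at their starts in both groups. PKNOX1 region 2 (chr21:42974587-42975906) measured 456 and 443 in DMSO and 480 and 513 in I-BET151, the highest DMSO mean among the 24, and its ratio of 1.10 missed the threshold (limma adjusted p = 0.155). PKNOX1 region 1, 462 bp upstream, had a ratio of 1.08 (limma adjusted p = 0.376). In both regions each I-BET151 library was above each DMSO library, by less than the larger of the gaps between replicates.

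PKNOX2 region 1 (chr11:125164867-125165823), in an intron and 557 bp from a start, measured 287 and 299 in DMSO and 349 and 378 in I-BET151, 1.24-fold higher (limma adjusted p = 0.0059). PKNOX2 regions 2 and 3 were 1.19-fold and 1.26-fold higher (limma adjusted p = 0.0363 and 0.013). None of the 3 was called in RPM.

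**Figure D3:**
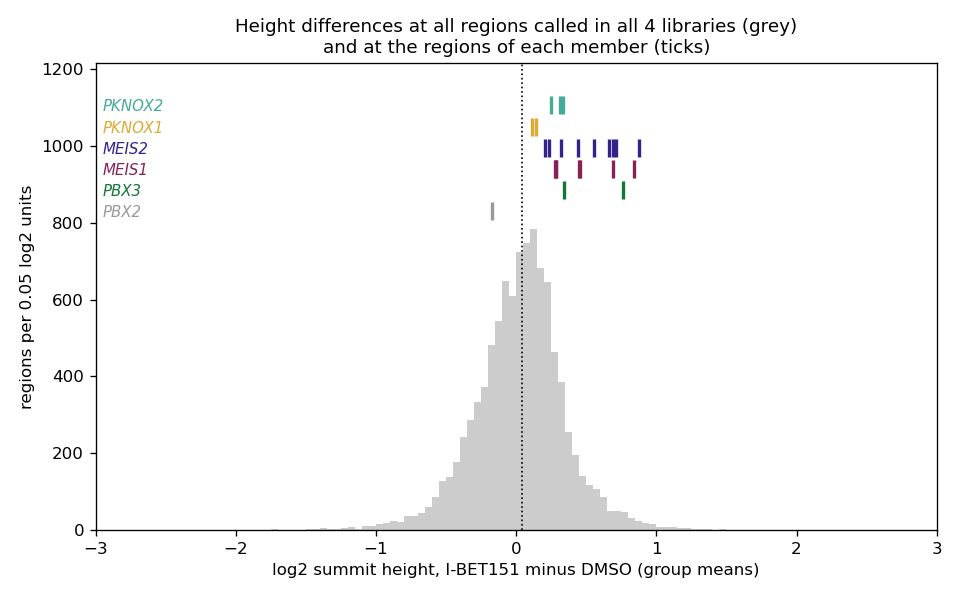
Log2 difference in summit height between group means, I-BET151 minus DMSO (horizontal axis), at all 9982 regions with heights (grey bars, regions per 0.05 log2 units; dotted line, their median of 0.04) and at the own regions of each gene (ticks). All 23 ticks of MEIS1, MEIS2, PBX3, PKNOX1 and PKNOX2 lie above the dotted line and that of PBX2 lies below it.

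The fold that the authors' peak caller gave divides the summit by the local background and so moves with the input too. It was higher in both I-BET151 libraries at 14 of 25 own regions, lower at 0 and overlapping at 11, against 25.4% higher and 16.4% lower among 10317 regions. At MEIS2 region 8 the fold was 8.05 and 6.65 in DMSO and 30.7 and 15.4 in I-BET151, 2.97-fold higher where the height was 1.47-fold higher. The local input there was 7.00 and 8.00 reads in DMSO and 2.03 and 4.00 reads in I-BET151, and the fold divides by it.

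At 4 regions, MEIS1 regions 6 and 8 and MEIS2 regions 7 and 10, the fold was lower in the I-BET151 mean while the height was higher. Width was larger in both I-BET151 libraries at 10 of 25 own regions and smaller at 1, PBX2 region 6, against 16.0% wider and 33.3% narrower among 10317 regions. MEIS1 and MEIS2 held 4 wider regions each and PBX3 held 2, and no PKNOX region separated by width.

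**Figure D4:**
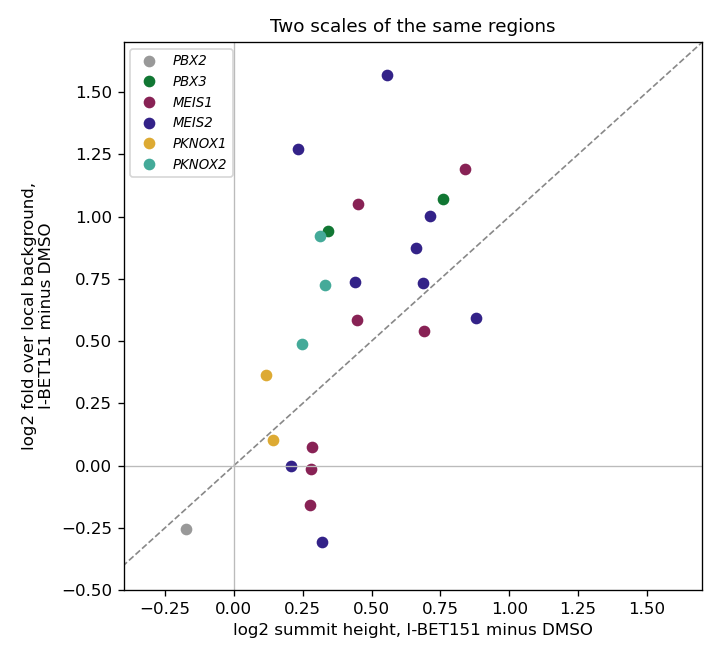
Log2 difference, I-BET151 minus DMSO, in the fold over local background (vertical axis) against that in summit height (horizontal axis) for the 24 own regions, coloured by gene. The dashed line marks equal differences; MEIS2 region 8 is highest on the vertical axis, and the 4 points of MEIS1 and MEIS2 below the horizontal line at 0 are regions higher on the height scale.

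Other TALE genes showed no common direction. Of a list of 10 (TGIF1, TGIF2, IRX1 to IRX6, MKX and the PBX-binding protein gene PBXIP1), 3 had peaks in their windows and the 7 IRX and MKX genes had none. TGIF1, a repressor of TGFβ targets, measured 3.31 and 3.42 kb in DMSO against 3.88 and 3.73 kb in I-BET151. TGIF2, its relative, measured 3.50 and 3.09 kb in DMSO against 2.19 and 2.72 kb in I-BET151, and PBXIP1 overlapped.

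The genes whose covered length over the 4 libraries was most like that of MEIS2, relative to their own mean, were ZSCAN21 (Euclidean distance 0.0106), SFTPB (0.012) and MAGI1 (0.0177) among 9728 genes. The likeness rests on 4 values a gene and describes these libraries only.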

How the data were processed

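H3K27ac ChIP-seq and input reads were aligned by the authors to hg38 with Bowtie2 2.2.5, duplicates were removed, and peaks were called per library with MACS2 2.1.2. The deposited narrowPeak columns used were the fold over the local background at the summit (a ratio), its −log10 p and −log10 q from the authors' caller, and the peak's start, end and summit. No read counts were used as deposited. The other tools named in the submitters' notes, ChIPseeker, HOMER and deepTools, served annotation, motif search and coverage tracks, none of which was used here.

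From each peak's deposited fold and −log10 p, the ChIP fragments and local input at the summit were solved as MACS2 computes them (pseudocount 1, tolerance 0.003 for whole reads), and 98.7 to 99.4% of peaks were resolved. The method was tested on simulated data (4394 peaks, 99.0% resolved, 100% of these right). A genome size of 2.7e+09 bp set the genome-wide level. Recovered fragments cover counting error only.

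Genes came from GENCODE release 44. A region was a member's own where the nearest protein-coding start was that member's, and promoter meant within 3 kb. Values per library were compared by two-sided exact permutation tests with 2 libraries against 2. Because that design cannot pass a threshold, limma 3.58.1 with a variance trend (R 4.3.3) was added after seeing the data, on log2 heights at 9982 regions called in all 4 libraries, Benjamini-Hochberg adjusted over all. In a simulation of that fit it recovered 77 of 100 regions changed by 0.5 log2 units and 100 of 100 changed by 1. The simulation gave every region the same spread. In the data the fit's standard error was 0.079 at MEIS2 region 5 and 0.358 at PBX2 region 6. Recovery at regions of larger spread was therefore not tested. The prior degrees of freedom of the fit to the data were infinite, so 1 common trend of spread was used.

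All 8 members were named. Regions named were those gained or lost, those over own starts and, per gene, up to 2 with the largest width difference between groups that did not overlap. Regions also named for their height, and the sequences printed, were chosen after their values were seen. The members and gene lists were chosen with earlier results of these data known. Alternatives covered the window, the peaks used, the merging, the scale, each replicate and the replicate block.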

Additional observations from a re-analysis of the deposited data

Results flagged for a closer look

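The input libraries were compared above only as the background of the ChIP values. At summits in the members' windows, the local input used by the peak caller was a median 35.9 times the genome-wide input level in DMSO replicate 1 (36 regions), 32.1 times in DMSO replicate 2 (34 regions), 31.5 times in I-BET151 replicate 1 (35 regions) and 29.4 times in I-BET151 replicate 2 (36 regions). It is listed as signal in control libraries that was not analysed in its own right. The lowest value was 1.0 times the genome-wide level, in I-BET151 replicate 1. That level was itself the lowest local input recovered in a library, so no value below 1.0 was possible. The ratio was not computed over all regions. Whether its size, or its difference between groups, is particular to the members' windows was therefore not tested. Both I-BET151 medians lay below both DMSO medians, and the part of this in the height and fold differences was not tested.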

How the results depend on the processing

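Of 358 recomputed values for 41 results, 289 stayed within the spread or 1.5 times the count, 64 were labelled moved and 5 differences between groups that did not overlap reversed. The 64 include MEIS3 values that stayed at 0 kb. They were labelled moved because the rule asked for a change below the spread, which was 0 for MEIS3. Another 6, of overlapping groups, changed sign: the summed covered length (-0.29 kb without DMSO replicate 2), MEIS1 (0.605 kb without DMSO replicate 1, 0.822 kb with equal numbers of top-ranked peaks), PKNOX1 (-0.0275 kb without DMSO replicate 1, -0.184 kb with 100 kb) and PKNOX2 (-0.021 kb without I-BET151 replicate 1). The number of members with higher covered length was 1 with 10 kb either side, 1 with the gene body and 3 kb, and 4 under the replicate block. It ranged from 2 to 5 with 1 replicate left out, and the number lower was 3 with 100 kb either side and ranged from 1 to 2. Regions gained were 0 with 10 kb or with 3 kb, 2 with equal numbers of top-ranked peaks and 1 to 4 with a replicate left out. Regions lost were 0, 0, 2 with 100 kb, 2 at a −log10 q of at least 5, and 1 to 2. With a replicate left out, 1 group held a single library, so groups separated more easily for any gene or region. The shares over all genes and regions were not recomputed for these counts of members and of regions gained or lost. The counts therefore cannot be set against a background. Own regions higher by summit were 14 on the authors' fold, and those lower were 1 after division by the library median and 0 to 1 with a replicate left out. The limma count of higher own regions was 11 in RPM, 0 on the authors' fold, and 9 to 19 with a replicate left out, being 9 without either DMSO replicate. PBX2's covered length reversed to -0.0495 kb with the gene body and 3 kb, and 4 log2 differences reversed on the fold: -0.0132 at MEIS1 region 6, -0.158 at MEIS1 region 8, -0.00096 at MEIS2 region 7 and -0.306 at MEIS2 region 10. The smaller window around PBX2 holds fewer peaks and the fold includes the local input, but the part of either in these reversals was not tested.

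The labels do not say whether same-numbered libraries were made together. The correlation of their deviations was 0.0561 over 9982 regions, which cannot decide it. With the replicate block, the summed covered length differed by 1.26 kb, from pairs of 0.348 and 2.17 kb, and limma called 17 own regions. Having 2 libraries a group, an input of 2.67 to 3.04 M reads and peak lists in place of full signal limit these values, and a region not called may still carry the mark.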
